A study of Saccharomyces cerevisiae with 104 samples.

Results

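The transsulfuration and homoserine pathway of budding yeast is represented here by 9 genes, STR2, STR3, CYS3, CYS4, MET2, HOM2, HOM3, HOM6 and SAH1. They were taken by gene name from the abundance tables of 4 RNA-seq libraries, and all 9 of the 7108 listed genes were found in every table with values above 0. Each level was read against the median of the 5989 nuclear protein-coding genes of the same library.

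The series holds 104 Saccharomyces cerevisiae samples, of which 100 are ChIP-exo samples, a mapping of protein contacts on DNA, not analysed here. Its title and design text concern the stalling of RNA polymerase II after acute hydrogen peroxide stress. The 4 RNA-seq samples of total RNA carry the same protocol text as every other sample, with growth at 25 °C and 0.3 mM H2O2 for 6 min, and no label names a treated or untreated library, a strain, a genotype or a replicate. That text describes crosslinking and antibody isolation for ChIP and gives no RNA preparation. They are called library 1 to library 4 as names only, no groups were formed, and no value has a replicate error or a test. Values in series follow the order of libraries 1, 2, 3 and 4.

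Yeast makes homoserine from aspartate in steps catalysed by Hom3, Hom2 and Hom6, and homoserine then feeds either threonine or, after acetylation by Met2, homocysteine. Transsulfuration links homocysteine and cysteine through cystathionine in both directions, with Cys4 and Cys3 leading to cysteine and Str2 and Str3 leading back to homocysteine. Homocysteine is also released by Sah1 from S-adenosylhomocysteine, the product left when S-adenosylmethionine gives up its methyl group. Cysteine made this way is a building block of glutathione, a thiol that cells use against peroxides.

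TPM is a length-normalised abundance that adds up to a fixed total per library, ribosomal RNA counted, so the part left for messengers can differ. Nuclear protein-coding genes held between 5.77 and 46.9% of TPM, and the median such gene stood at 40.2, 7.50, 17.6 and 3.59 TPM with a coverage, or mean read depth, of 12.8, 3.70, 8.17 and 2.26. A ratio to the median gene is a gene's TPM divided by that library's median, and it is the level used below unless TPM is named. The number of read pairs behind a value was estimated from covered bases at 76 bases a pair, and the percentages given as counting SD follow from that number and cover counting error only.

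The pathway split into genes that kept a high level everywhere and genes that crossed the median. HOM3, HOM2, HOM6, CYS4, CYS3 and SAH1 stood between 2.85 and 21.05 times the median gene in all 4 libraries. MET2, STR2 and STR3 stood above the median gene in libraries 1 and 3 and below it in libraries 2 and 4. Some of these values lay close to the median gene for their depth. STR2 stood at 1.09 in library 3 and 0.808 in library 4, with counting SDs of 6.67 and 14.7%. MET2 stood at 0.866 in library 4, with a counting SD of 16.3%. As a whole the 9 genes held 0.615, 0.350, 0.539 and 0.305% of the TPM of nuclear protein-coding genes.

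**Figure D1:**
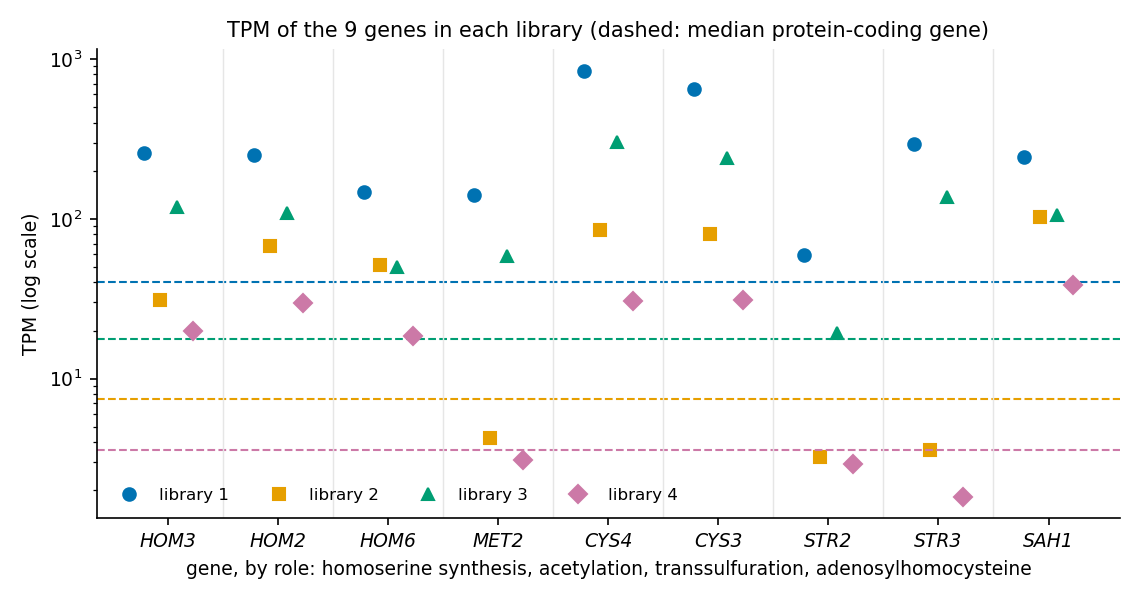
TPM (log axis) of each gene in libraries 1 to 4, with the median nuclear protein-coding gene of each library as a dashed line of the same colour. On this scale library 1 had the highest point of every gene, while STR3 ran from 295 TPM in library 1 to 1.83 TPM in library 4.

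HOM3 encodes aspartate kinase, which opens the pathway and lies on chromosome 5, positions 256375 to 257958. It stood at 257, 31.1, 118 and 19.8 TPM, or 6.40, 4.15, 6.69 and 5.50 times the median gene. The highest and lowest library thus differed by 1.61-fold. The median of such ranges was 1.87-fold over the 5757 protein-coding genes with values above 0 in all libraries. HOM2, the aspartate semialdehyde dehydrogenase gene on chromosome 4, positions 770357 to 771454, had 251, 67.1, 109 and 29.8 TPM. Its ratios of 6.24, 8.95, 6.22 and 8.29 spanned only 1.44-fold, the narrowest range of the 9, with libraries 2 and 4 above libraries 1 and 3. HOM6, homoserine dehydrogenase on chromosome 10, positions 689445 to 690524, had 147, 51.3, 50.3 and 18.6 TPM. Its ratios were 3.64, 6.84, 2.85 and 5.17, again higher in libraries 2 and 4. On TPM as deposited, HOM6 and HOM2 were instead highest in library 1.

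The balance within homoserine synthesis can be read without any scaling between libraries, from TPM ratios inside a library. HOM3 and HOM2 were near equal in libraries 1 and 3, at ratios of 1.03 and 1.08, whereas HOM3 stood at 0.463 of HOM2 in library 2 and at 0.664 in library 4. HOM3 exceeded HOM6 by 1.76-fold and 2.34-fold in libraries 1 and 3, stood at 0.606 of it in library 2 and was near equal at 1.06 in library 4. HOM2 lay above HOM6 in each library, at 1.71, 1.31, 2.18 and 1.60 times its TPM.

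MET2 encodes homoserine O-acetyltransferase, which commits homoserine to sulfur amino acids (chromosome 14, positions 117349 to 118809). It stood at 141, 4.26, 58.4 and 3.11 TPM. Relative to the median these were ratios of 3.50, 0.568, 3.31 and 0.866, so libraries 1 and 3 placed MET2 among the upper genes, at percentiles 89.3 and 88.4 of protein-coding genes, and libraries 2 and 4 placed it at 27.8 and 43.9. About 860.4, 40.4, 520.4 and 37.6 read pairs lay behind these values, a counting SD of 15.7% in library 2 and 16.3% in library 4. The range was 6.17-fold, and 4.04-fold without library 2. Against HOM6, the step before it, MET2 was near equal in libraries 1 and 3 (ratios of 0.962 and 1.16) and at 0.0830 and 0.167 of it in libraries 2 and 4. A listed reading frame on the other strand, YNL276C, covers 379 bases of MET2 and was listed at 50.7, 0, 25.2 and 1.55 TPM. The strandedness of the libraries is not given in the sources used here, so reads of both cannot be told apart.

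CYS4 and CYS3 act in turn from homocysteine to cysteine and were the most abundant of the 9 in libraries 1 and 3. CYS4, cystathionine beta-synthase (chromosome 7, positions 798543 to 800066), had 847, 84.8, 303 and 30.7 TPM, or ratios of 21.05, 11.3, 17.2 and 8.54. CYS3, cystathionine gamma-lyase (chromosome 1, positions 130799 to 131983), had 645, 80.1, 241 and 30.8 TPM, or ratios of 16.04, 10.7, 13.7 and 8.57. Both were highest in library 1 and lowest in library 4, with ranges of 2.47-fold and 1.87-fold. The pair kept a nearly fixed proportion, CYS4 standing at 1.31, 1.06, 1.26 and 0.996 times CYS3. Even at their lowest they lay near percentile 94.9 of protein-coding genes.

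STR2 and STR3 encode the enzymes of the reverse route, and their levels did not move as a pair. STR2, cystathionine gamma-synthase (chromosome 10, positions 665218 to 667137), had 59.1, 3.21, 19.2 and 2.90 TPM and ratios of 1.47, 0.428, 1.09 and 0.808. Its range of 3.43-fold rested on library 2 and was 1.82-fold without it. The library 2 value came from about 40.1 read pairs and the library 4 value from about 46.1, against 474 and 225 in libraries 1 and 3.

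STR3, cystathionine beta-lyase, lies on the minus strand of chromosome 7, positions 154615 to 156012. Its ratio to the median gene was 7.32, 0.477, 7.83 and 0.509. Libraries 1 and 3 were thus close to each other, as were libraries 2 and 4, and either of the first pair exceeded either of the other by 14.4-fold to 16.4-fold. STR3 went from percentiles 96.98 and 96.7 of protein-coding genes in libraries 1 and 3 to percentiles 23.3 and 26.1 in libraries 2 and 4. Coverage was 93.5, 1.77, 63.9 and 1.15, which corresponds to about 1720.5, 32.5, 1176 and 21.1 read pairs and to counting SDs of 2.41, 17.5, 2.92 and 21.8%. The 16.4-fold range was the widest of the 9 and was reached or exceeded by 73 of 5757 protein-coding genes with values above 0 in all libraries, STR3 itself among the 73. It stayed between 15.4 and 16.4 whichever library was left out, which follows from the likeness of libraries 1 and 3 and of 2 and 4.

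SAH1 encodes S-adenosylhomocysteine hydrolase, an enzyme that returns homocysteine to the methyl cycle (chromosome 5, positions 235770 to 237119). It had 242, 103, 105 and 38.5 TPM. Its ratios of 6.02, 13.7, 5.98 and 10.7 were higher in libraries 2 and 4 than in libraries 1 and 3, the reverse of STR3 and MET2, although TPM as deposited was highest in library 1. SAH1 was the most abundant of the 9 in libraries 2 and 4, where CYS4 led in libraries 1 and 3. The TPM of CYS4 was 3.49, 0.826, 2.88 and 0.796 times that of SAH1.

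**Figure D2:**
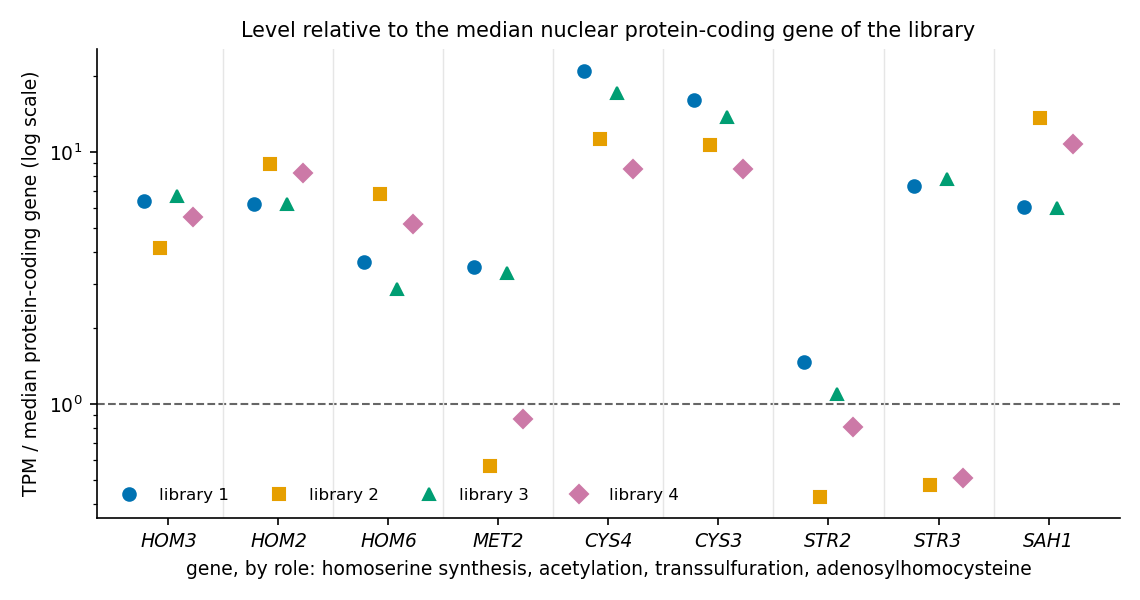
TPM divided by the median nuclear protein-coding gene of the library (log axis) for each gene, with the dashed line at the median gene. MET2, STR2 and STR3 lie on both sides of the line, HOM2, HOM6 and SAH1 have their 2 highest points in libraries 2 and 4 (on TPM as deposited, in library 1), and CYS4 and CYS3 in libraries 1 and 3.

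Shares of the summed TPM of the 9 genes show the change in balance with no scaling between libraries. The reverse route, STR2 plus STR3, made up 12.3, 1.59, 13.7 and 2.69% of the sum. The forward route, CYS4 plus CYS3, made up 51.7, 38.5, 47.7 and 34.9%. SAH1 alone made up 8.40, 23.97, 9.22 and 21.9%, and the 3 homoserine genes 22.7, 34.9, 24.3 and 38.7%. By direct TPM ratio, STR3 was at 0.457 of CYS3, the lyase gene of the opposite route, in library 1 and at 0.571 in library 3, against 0.0446 in library 2 and 0.0593 in library 4. The step between STR3 and SAH1 was larger still, with STR3 at 1.22, 0.0349, 1.31 and 0.0475 times SAH1. STR2, the other gene of the reverse route, stood at 0.0916, 0.0401, 0.0794 and 0.0942 of CYS3. Against CYS3, both genes of the reverse route were thus lower in library 2 than in libraries 1 and 3. In library 4 only STR3 was lower, and STR2 had its highest ratio there.

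**Figure D3:**
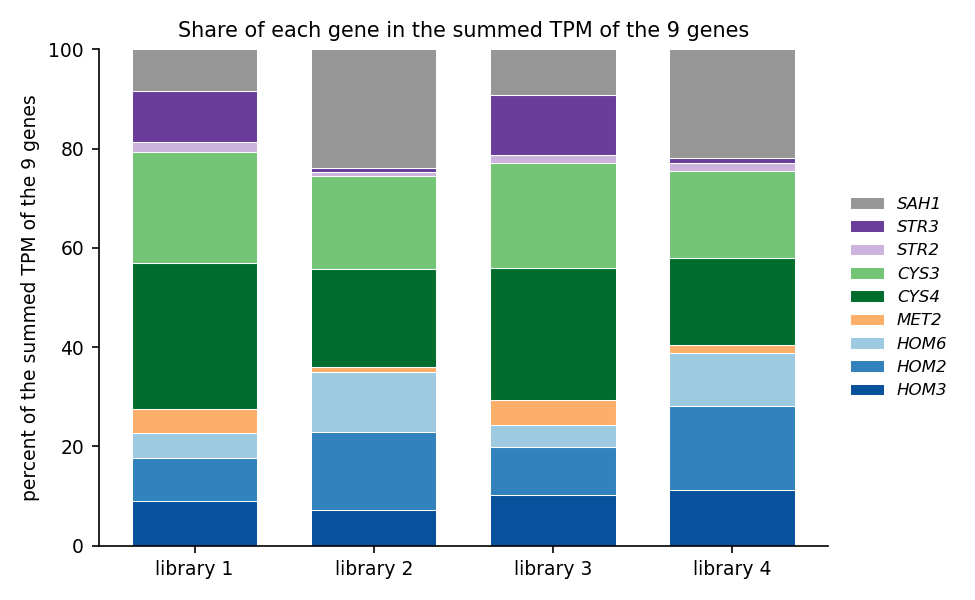
Percent of the summed TPM of the 9 genes held by each gene in each library, as stacked bars that add to the whole. The STR3 segment is 10.2 and 12.1% in libraries 1 and 3 and 0.835 and 1.04% in libraries 2 and 4, while the SAH1 segment is wider in libraries 2 and 4.

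All 6 pairs of libraries were compared, counting genes whose ratio to the median gene differed by 2-fold or more. These counts describe single libraries, and pairs that share a library are not separate observations. Between libraries 1 and 3, 0 of the 9 genes were 2-fold apart in either direction, beside 1.13% of 5857 protein-coding genes higher in library 1 and 3.59% lower. Between libraries 2 and 4 the count was also 0 both ways, beside 5.47% of 5781 genes higher in library 2 and 3.58% lower.

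Library 1 against library 2 gave 3 of the 9 genes higher, STR3 by 15.4-fold, MET2 by 6.17-fold and STR2 by 3.43-fold, beside 9.2% of 5836 protein-coding genes. SAH1 was the 1 gene of the 9 that was lower in library 1, with library 2 at 2.27 times its level, beside 20.5% of protein-coding genes. Library 1 against library 4 gave 3 genes higher, STR3 by 14.4-fold, MET2 by 4.04-fold and CYS4 by 2.47-fold, beside 10.9% of 5805 genes, and 0 lower, beside 19.7%.

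Library 3 against library 4 gave the same 3 genes, STR3 by 15.4-fold, MET2 by 3.82-fold and CYS4 by 2.02-fold, beside 7.77% of 5795 genes, and 0 lower, beside 16%. CYS4 lay so close to 2-fold in that pair that its counting SD of 5.09% in library 4 spans the limit. Library 2 against library 3 gave 2 genes higher, HOM6 by 2.40-fold and SAH1 by 2.29-fold, beside 17.7% of 5824 genes. It gave 3 lower, with library 3 at 16.4 times library 2 for STR3, 5.84 times for MET2 and 2.54 times for STR2, beside 7.62% of genes.

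In these 4 pairs the median over the 9 genes of the log2 difference was 0.63 for library 1 less library 2, 0.86 for 1 less 4, 0.43 for 3 less 4 and -0.61 for 2 less 3. The same medians over all protein-coding genes were -0.05, -0.06, -0.05 and 0.03, near 0 by construction because each library was divided by its median gene. The size of the higher and lower counts depended on what each library was divided by. Dividing by the summed TPM of protein-coding genes, in place of the median gene, moved the median log2 difference over all protein-coding genes. It was then 0.43, 0.40, 0.37 and -0.41 in those pairs. The medians over the 9 genes shifted by the same amounts, so their distance from the medians over all genes did not change. The shares of genes higher and lower became 25.4 and 12.3% for 1 against 2, 25.5 and 11.6% for 1 against 4, 19.9 and 9.49% for 3 against 4, and 10.3 and 20.5% for 2 against 3. HOM2 then changed direction for 1 against 4, from -0.41 to 0.05, and for 3 against 4, from -0.41 to 0.00061. The other 8 genes kept theirs in these 4 pairs, although HOM6 shrank from -0.51 to -0.04 for 1 against 4. HOM2 kept its direction but shrank from -0.52 to -0.04 for 1 against 2 and from 0.53 to 0.09 for 2 against 3.

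On TPM as deposited, with no division, 86.99% of genes were higher and 1.17% lower for 1 against 2, 70.9 and 0.410% for 1 against 3, 96.97 and 0.310% for 1 against 4, 3.79 and 58.9% for 2 against 3, 55.5 and 0.744% for 2 against 4, and 88.9 and 0.552% for 3 against 4. The log2 differences of STR3 were then 6.36 for 1 less 2 and 6.24 for 3 less 4. The medians over protein-coding genes were 2.37 and 2.24. Leaving out the division shifts every gene of a pair by the same amount, so the distance of STR3 from that median cannot change.

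**Figure D4:**
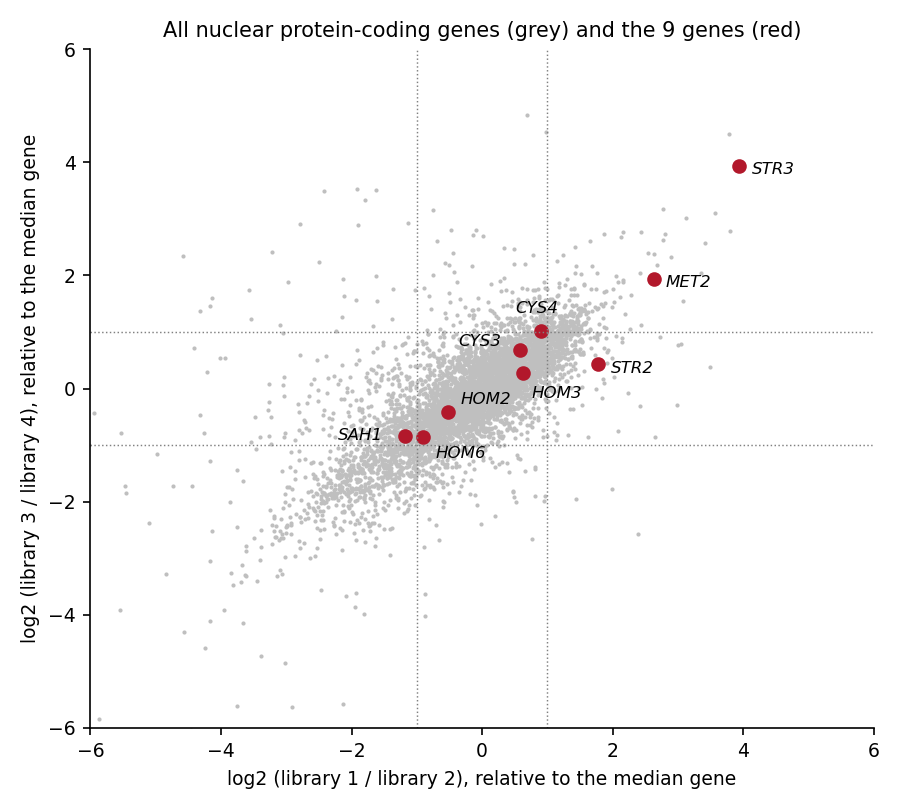
Log2 difference in ratio to the median gene, library 1 less library 2 (x axis) and library 3 less library 4 (y axis), for 5757 nuclear protein-coding genes in grey and the 9 genes in red, with dotted lines at 2-fold and 9 grey genes outside the axes. STR3 sits at 3.94 on both axes, MET2 at 2.63 and 1.94, and SAH1 at -1.18 and -0.84, with HOM2 and HOM6 also negative on both axes. On TPM as deposited, HOM2, HOM6 and SAH1 were positive in both pairs.

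Likeness of pattern was measured as the root mean square difference in log2 ratio over the 4 libraries, after each gene was centred on its own mean. Among the 9, the closest pairs were HOM6 and SAH1 at 0.14 and CYS3 and CYS4 at 0.17, and the farthest was STR3 and SAH1 at 2.48. STR2 and STR3, the consecutive steps of the reverse route, were 1.46 apart. All genes share the 4 libraries and their depth, so these distances are descriptions.

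Outside the pathway, 3598 protein-coding genes whose median TPM reached 10 were compared in the same way. For STR3, 0 of these genes lay within 0.25 and 4 within 0.5. Its nearest was MHT1, a homocysteine methyltransferase gene that uses S-methylmethionine and is counted below among the genes leading to methionine, at 0.34. MHT1 had 105, 1.64, 48.4 and 1.16 TPM, or ratios of 2.61, 0.219, 2.75 and 0.321. It met the limit on median TPM through libraries 1 and 3, and its coverage in libraries 2 and 4 was 0.812 and 0.725, so its likeness to STR3 and the counts near STR3 depend on that limit. MET2 had 7 genes within 0.25 and was nearest to the stress-inducible Hsp70 gene SSA4 at 0.09.

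STR2 had 42 genes within 0.25, the nearest being RMD9 at 0.15. The remaining 6 genes had common patterns, with 276 genes within 0.25 of HOM6, 367 of SAH1, 509 of CYS4, 827 of HOM2, 902 of HOM3 and 920 of CYS3. Their nearest genes were PAB1 for HOM6, RNR2 for SAH1, INP53 for CYS4, CMC1 for HOM2, MOD5 for HOM3 and RGP1 for CYS3, at 0.02, 0.03, 0.04, 0.01, 0.03 and 0.01. To the median pattern of the 9 genes, AVT4, YLL054C and PLC1 came closest. RMD9, INP53, MOD5, RGP1, AVT4, YLL054C and PLC1 were below 10 TPM in libraries 2 and 4, and CMC1 in library 4 only. The first 7 met the limit on median TPM through libraries 1 and 3, so these counts and nearest genes depend on that limit too. PAB1 and RNR2 were above 10 TPM in every library.

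Genes on connected routes were counted in the pairs 1 against 2 and 3 against 4, which share no library. Pairs 1 against 3 and 2 against 4 share none either, nor do 1 against 4 and 2 against 3, so this was not the only such choice. Of all protein-coding genes, 9.2% were higher and 20.5% lower for 1 against 2, and 7.77% higher and 16% lower for 3 against 4. Of 10 genes for sulfate uptake and reduction to sulfide with values above 0, 6 were 2-fold or more higher in library 1 than in library 2 and 7 in library 3 than in library 4, with 0 lower in either. Their median log2 differences were 1.35 and 1.51. For 1 against 3 and for 2 against 4, 0 of these genes were 2-fold apart in either direction. Beside them, 1.13% of all protein-coding genes were higher and 3.59% lower for 1 against 3. For 2 against 4 these shares were 5.47 and 3.58%. MET17, the eleventh gene of that list, encodes the sulfhydrylase that joins sulfide to the acetylhomoserine made by Met2, and it was listed at 0 in all 4 libraries. LEU2 and URA3, common selection markers, were also listed at 0 in all 4, while HIS3 had 24.3, 6.91, 10.2 and 5.20 TPM and LYS2 109, 11.6, 37.7 and 4.79 TPM. An entry of 0 may be a failed estimate, and the strain was not given.

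From homocysteine on to methionine and S-adenosylmethionine, 3 of 7 genes were higher in library 1 than in library 2 and 4 of 7 in library 3 than in library 4, with 0 lower and medians of 0.98 and 1.06, beside 9.2 and 7.77% of all protein-coding genes higher. The threonine branch, the other fate of homoserine, had 0 of 3 genes higher and 1 of 3 lower in both pairs, with median log2 differences of -0.81 and -0.93 relative to the median gene. With 20.5 and 16% of all protein-coding genes lower in these pairs, 1 of 3 does not set the branch apart. The gene was THR1, homoserine kinase, which competes with Met2 for homoserine. THR1 had ratios of 0.884, 2.63, 0.883 and 2.91 and so lay below the median gene in libraries 1 and 3, where MET2 lay above it, and above it in libraries 2 and 4. Its TPM as deposited was highest in library 1, at 35.5, 19.8, 15.6 and 10.5.

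Regulators of sulfur and amino acid genes had 3 of 7 and 4 of 7 higher and 0 lower, with medians of 0.80 and 1.28, beside 9.2 and 7.77% of all protein-coding genes higher. Of the 7 regulators, 5 and 4 had positive log2 differences. GCN4 was negative in both pairs, at -0.9994 and -0.70, and so fell just short of the 2-fold limit for 1 against 2. MET31 was also negative in both, at -0.51 and -0.08, and MET4 stood at 0.16 and -0.36. The glutathione synthesis genes GSH1 and GSH2 had 1 of 2 and 0 of 2 higher, with medians of 1.00 and 0.57, too few genes to read against those shares. Genes that make serine, a substrate of Cys4, or pass on its carbon had 1 of 6 higher in both pairs, with 2 lower for 1 against 2 and 1 lower for 3 against 4, counts near the shares of all protein-coding genes (9.2 and 7.77% higher, 20.5 and 16% lower). The higher gene was SER33, a phosphoglycerate dehydrogenase gene, with log2 differences of 1.11 and 1.09. Aspartate supply (AAT1 and AAT2) and adenosine removal (ADO1 and AAH1), which border the pathway at Hom3 and Sah1, each had 0 of 2 genes 2-fold apart in either direction in both pairs. Beside 9.2 and 7.77% of all protein-coding genes higher and 20.5 and 16% lower, 2 genes are too few to read.

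**Figure D5:**
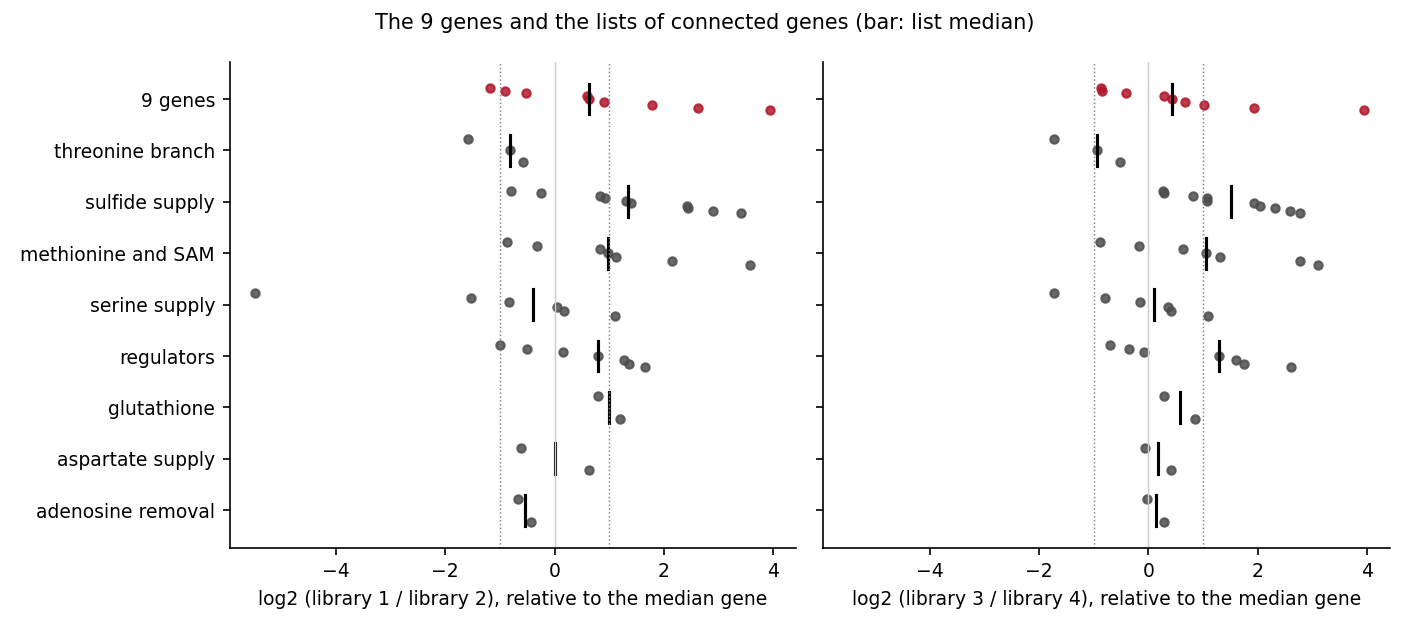
Log2 difference in ratio to the median gene for library 1 less library 2 (left) and library 3 less library 4 (right), with a point for each gene, a bar at each list median and dotted lines at 2-fold. The 9 genes spread from -1.18 to 3.94 in the left panel, the 3 points of the threonine branch are all negative on this scale, and the sulfide supply list has a median of 1.35.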

How the data were processed

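Total RNA was sequenced in 4 libraries, each with a table of 7108 genes. The authors deposited TPM, which adds up to a fixed total per library. They also deposited FPKM, which within a library was a constant multiple of coverage. Coverage, a signal, is named per the file headers and was read as mean depth along a gene. The build sacCer3 and BWA, Picard and SAMtools come from the submitters' processing notes; the RNA-seq aligner and estimator are not given in the sources used here. Coverage times gene span gave 302.3, 217.6, 235.9 and 189.6 megabases. Sums of 36, 40 and 76 covered bases recurred among genes under 100 covered bases, so 76 bases were taken as a read pair, an estimate.

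A RefSeq table (R64) matched 6011 identifiers and gave the protein-coding class. Ratios used no pseudocount. Since no label groups the libraries, no p-value was computed. Functions were tested on simulated data. Members and lists were chosen with earlier results of these data known. Named genes were the 9 members, their nearest genes in pattern, MET17, marker genes, overlapping genes and list genes that went against their list. THR1, SER3, GCN4, MET31, MET4, GSH1, GSH2, the aspartate, adenosine and family genes, and the neighbouring genes were named after their values were seen. Python 3.11.15 with numpy 2.4.6, pandas 2.3.3 and matplotlib 3.10.9 was used. Planned promoter motifs and protein identities were not analysed here.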

Additional observations from a re-analysis of the deposited data

How the results depend on the processing

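FPKM and coverage gave the same 12 pair counts by construction, since within a library both were constant multiples of TPM. All 12 pair counts were equal or within 1.5 times with pseudocounts of 0.1 and 1 TPM, median-of-ratios scaling and the upper quartile gene. The same held with reference genes filtered at a median TPM of 1 or without structural RNA overlap. With summed protein-coding TPM, members higher in library 1 numbered 6 against library 2 and 5 against library 4, with 0 lower against library 2, and library 2 against library 3 had 0 higher and 5 lower. On TPM as deposited, 9 were higher for 1 against 2, 1 against 3, 1 against 4 and 3 against 4, with 0 lower for 1 against 2. There, 2 against 3 had 0 higher and 6 lower, and 2 against 4 had 5 higher. At 1.5-fold the higher counts were 6 for 1 against 2 and 5 for 1 against 4, and the lower counts 2, 1, 5, 2 and 2 for 1 against 2, 1 against 4, 2 against 3, 2 against 4 and 3 against 4. At 4-fold, 1 against 2 had 0 lower, 2 against 3 had 0 higher and 3 against 4 had 1 higher, STR3. By construction a lower limit counts more genes, and TPM as deposited carries the messenger share. Shares over all protein-coding genes were taken at 2-fold only, so the counts at 1.5-fold and 4-fold have none to be read against. The cause of the shift with summed TPM was not tested. Ranges with each library left out in turn moved over 1.5 times only for STR2, from 3.43 to 1.82, and MET2, from 6.17 to 4.04, both without library 2. No paired analysis was possible because no label groups or numbers the libraries. Depth limits MET2, STR2 and STR3 in libraries 2 and 4, where coverage was at most 2.10.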

Other observations

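Neighbouring genes shared the pattern of the pathway gene beside them in some places and not in others, in examples chosen after their values were seen. BOR1, a boron transporter gene 458 bases from MET2, had ratios to the median gene of 1.07, 0.387, 0.998 and 0.476, higher in libraries 1 and 3 as MET2 was. MNS1, an alpha-mannosidase gene 506 bases from STR2, had 1.14, 0.510, 0.926 and 0.472, also higher in libraries 1 and 3. MXR1, a methionine sulfoxide reductase gene that ends 278 bases from SAH1, had ratios of 5.23, 1.41, 6.34 and 1.93, higher in libraries 1 and 3, where SAH1 was lower. PIC2, a mitochondrial carrier gene 778 bases from HOM3, had 1.14, 4.91, 1.03 and 5.24, against the 1.61-fold range of HOM3. The neighbours of STR3, YGL185C and MND1, had 0.490, 0.522, 0.485 and 0.933 and 0.0477, 0.0622, 0.0416 and 0. The pattern of STR3 was not seen in YGL185C. MND1, at 1.92, 0.466, 0.732 and 0 TPM, was too low to tell.

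SER3, a phosphoglycerate dehydrogenase gene like SER33, was listed at 1.24, 10.3, 0.660 and 0.444 TPM, and SER33 at 278, 23.9, 96.1 and 9.22 TPM. As a ratio to the median gene, SER3 stood above 1 in library 2 alone, at 1.37, with 0.0309, 0.0375 and 0.124 in libraries 1, 3 and 4. The family relatives of the transsulfuration enzymes YML082W, YLL058W and IRC7 had ratios of 2.10, 0.984, 1.96 and 0.791, of 2.09, 1.37, 2.04 and 1.16, and of 1.75, 1.96, 1.75 and 3.10, none with a range near that of STR3.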
